A study of Mus musculus with 4 samples.

Results

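The genes of the proteasome were followed in female mouse embryonic stem cells (ESCs) that received the histone demethylase inhibitor GSK-J4. The members are all genes whose symbol is *Psma*, *Psmb*, *Psmc*, *Psmd*, *Psme*, *Psmf* or *Psmg* with a digit after it. This rule found 40 genes, represented by 43 coding sequence groups, among the 9779 genes with a usable value. No member had a failed estimate. Of the constitutive 26S proteasome subunits with such symbols, 28 of 31 were measured, and *Psmb6*, *Psmc1* and *Psmc2* were not analysed here. The subunits *Adrm1* and *Shfm1* have other symbols, so they are not counted among the constitutive subunits below. The members lie on 16 chromosomes, and only *Psmd10* lies on the X chromosome.

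RNA-Seq was performed on the LF2 line, a single female ESC line of the 129/J strain, under 4 conditions with 1 library each. PBS+DMSO cells received only the vehicles PBS and DMSO, PBS+GSK-J4 cells received 10 μM GSK-J4, AA+DMSO cells received 50 μg/ml L-ascorbic acid (AA), and AA+GSK-J4 cells received both, each for 24 hr. GSK-J4 enters cells and inhibits the JmjC demethylases Utx and Jmjd3, and the authors report that it can also inhibit other JmjC demethylases. AA supports the activity of JmjC enzymes. All cells had grown on feeder cells and had gone through 2 passages without them before the treatment. There are no replicates, so each difference is between a pair of libraries and is given with no p-value. The number of reads behind the values is not known.

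The proteasome is the barrel-shaped protease that degrades proteins marked with ubiquitin. Its 20S core has outer alpha rings that gate the entry and inner beta rings that hold the active sites, and the 19S particle on each end binds, deubiquitinates, unfolds and feeds in the substrate. Interferon gamma exchanges the active-site subunits for the immunoproteasome forms, whose peptides are loaded on MHC class I molecules. When proteasome activity falls short, the transcription factor *Nfe2l1* is known to activate the subunit genes together through antioxidant response elements.

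Expression is given as FPKM, the fragments of a gene scaled by its exon length and by the mapped fragments of the library, so that levels can be compared between genes. In PBS+DMSO the 28 constitutive subunits had a median of 137.4 FPKM and ranged from 23.7 for *Psmd12*, a lid subunit, to 353.9 for *Psmb7*, the subunit with the trypsin-like active site. This is a range of 14.9-fold, although a particle holds its subunits in equal numbers. All but *Psmd12* were at 50 FPKM or above. The medians by role were 242.1 FPKM for the alpha ring, 209.9 for the beta subunits without an active site, 326.2 for the measured active-site subunits, 101.3 for the base ATPases and 117.6 for the lid. The medians of the core groups were thus above those of the base ATPases and the lid. The members outside the constitutive particle ranged up to 64.0 FPKM for *Psme4*, above *Psmd8* and *Psmd12*, and the lowest included *Psmb10* at 15.8 FPKM, *Psmf1* at 9.0, the testis form *Psma8* at 5.50 and *Psmb9* at 0.671. With 1 library per condition, the order of neighbouring genes cannot be set against a replicate spread. The order of the 40 levels was similar in every pair of libraries, with a Spearman correlation between 0.983 and 0.997 over the genes.

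**Figure D1:**
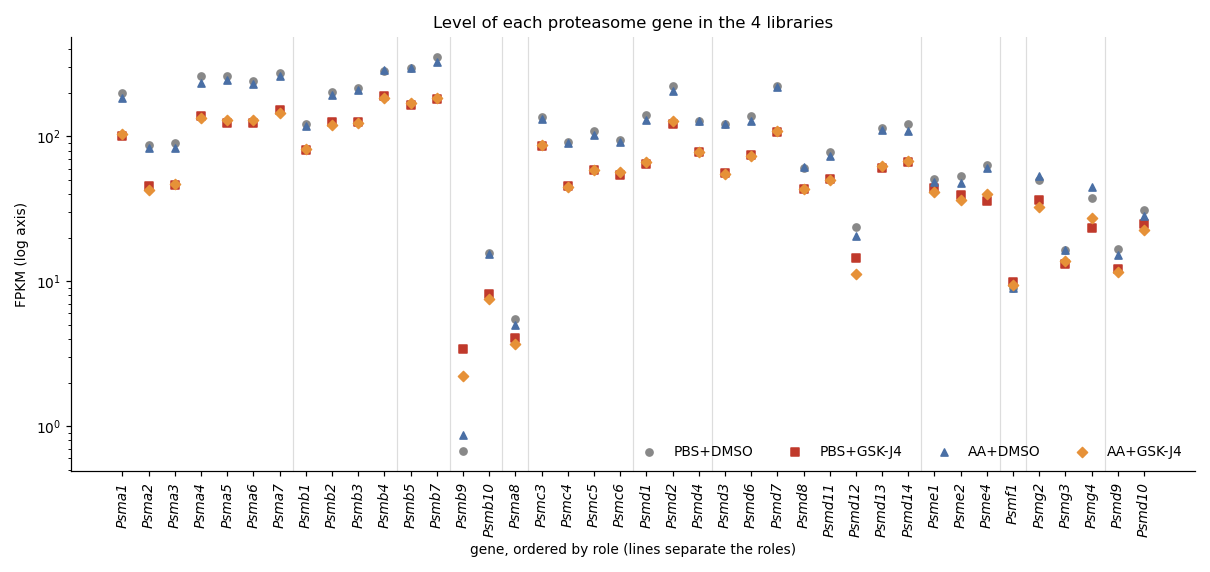
FPKM of each of the 40 proteasome genes on a log axis, in order of role, with 1 point for each library. In all 28 constitutive subunits the points of both GSK-J4 libraries lie below those of both DMSO libraries. The same holds in 50.3% of all genes and in 80% of genes with a mean of at least 20 FPKM. *Psmb9* and, by a small margin, *Psmf1* have the opposite order, whose share over all genes was not counted.

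The first question is how the proteasome genes responded to GSK-J4. Summed over the 40 genes, FPKM came to 5048 with DMSO against 2836 with GSK-J4 when AA was absent, and to 4826 against 2837 when it was present. As the FPKM of all genes was also lower with GSK-J4, the share of the proteasome genes was 1.4% with DMSO against 1.03% with GSK-J4 in the absence of AA, and 1.41% against 1.05% in its presence. The differences below are log2 ratios of FPKM + 1, GSK-J4 over DMSO, which understate the difference for weakly expressed genes. Where 4 levels of a gene follow each other they stand in the order PBS+DMSO, PBS+GSK-J4, AA+DMSO, AA+GSK-J4, and a pair of log2 ratios is given without AA first and with AA second. Loci are those of the deposited tables, on mm10.

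Without AA, 30 of the 40 members (75%) were at least 1.5-fold lower with GSK-J4, against 19.3% of the 9196 genes that reached 1 FPKM in one or both libraries. Only *Psmb9* was at least 1.5-fold higher, against 11.6% of all genes. With AA, 28 members (70%) were at least 1.5-fold lower, against 17.8% of 9139 genes, and again only *Psmb9* was higher, against 10.1%. In both comparisons 27 members were lower by that margin, and the share of all genes lower in both was not counted. The median log2 ratio of the members was -0.80 without AA and -0.70 with AA, compared with -0.17 and -0.16 over all genes. For the constitutive subunits, 27 of 28 without AA and 24 of 28 with AA were at least 1.5-fold lower, and their medians were -0.87 and -0.81. These libraries are bulk RNA, in which fewer cells of a type and less RNA per cell cannot be told apart.

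Strongly expressed genes in general were lower with GSK-J4. Among the 2673 genes with a mean of at least 20 FPKM, 37.8% without AA and 32.8% with AA were at least 1.5-fold lower, with medians of -0.47 and -0.42. Each gene was therefore also set against the running median of the 300 genes nearest to it in mean expression. Below that running median lay 31 of 40 members without AA and 33 with AA, where the share of all genes was 49.8% and 49.7%. For the constitutive subunits it was 25 and 27 of 28. The members lay below it by a small margin, with a median offset of -0.24 without AA and -0.21 with AA, and 1 and 2 members were at least 1.5-fold below it, where 7.88% and 8.81% of all genes were. Scaling each library to the same total FPKM moved the median of all genes to 0.16 and 0.14, and then 6 members in each comparison were at least 1.5-fold lower and 1, *Psmb9*, higher, with 4.68% and 5.51% of all genes lower. Under that scaling all 28 constitutive subunits still had a negative log2 ratio in both comparisons, but their medians were -0.49 and -0.48. The size of the difference thus depends on how the libraries are set against each other, which the tables do not show.

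**Figure D2:**
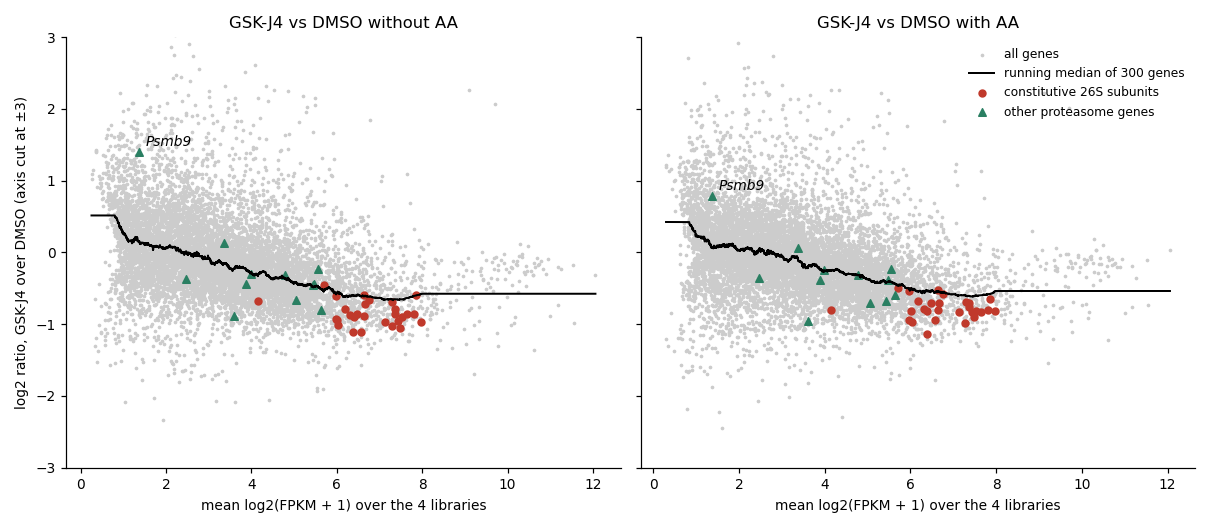
Log2 ratio of FPKM + 1, GSK-J4 over DMSO, against mean log2(FPKM + 1) over the 4 libraries, for all genes (grey) and the proteasome genes (red circles, constitutive subunits, and green triangles, other members), without AA on the left and with AA on the right. The running median (black) declines with expression, and 25 of 28 constitutive subunits without AA and 27 with AA lie below it.

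The constitutive subunits had log2 ratios close to each other. Their SD was 0.17 without AA and 0.15 with AA, compared with 0.51 and 0.49 over the genes with a mean of at least 20 FPKM. Such closeness was also seen in other assemblies, which are described below. Without AA the quartiles were -0.96 and -0.71 for the constitutive subunits and -0.82 and -0.70 for the COP9 signalosome. They were -0.35 and -0.15 for cytosolic ribosomal proteins, -0.73 and -0.49 for eIF3 and -0.99 and -0.62 for the CCT chaperonin. The largest differences of all members without AA were in *Psmd1*, *Psmd3* and *Psma5*, and with AA in *Psmd3*, *Psmd7* and *Psmc4*. The members nearest the 1.5-fold threshold were *Psmg4* (-0.66), *Psmc3* (-0.66), *Psmd11* (-0.61), *Psmb1* (-0.59) and *Psmb4* (-0.59) without AA, all just past it. With AA, *Psmb4* (-0.66) and *Psme4* (-0.60) were just past it, and *Psmc3* (-0.58), *Psmd11* (-0.54) and *Psmb1* (-0.52) were just short of it.

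**Figure D3:**
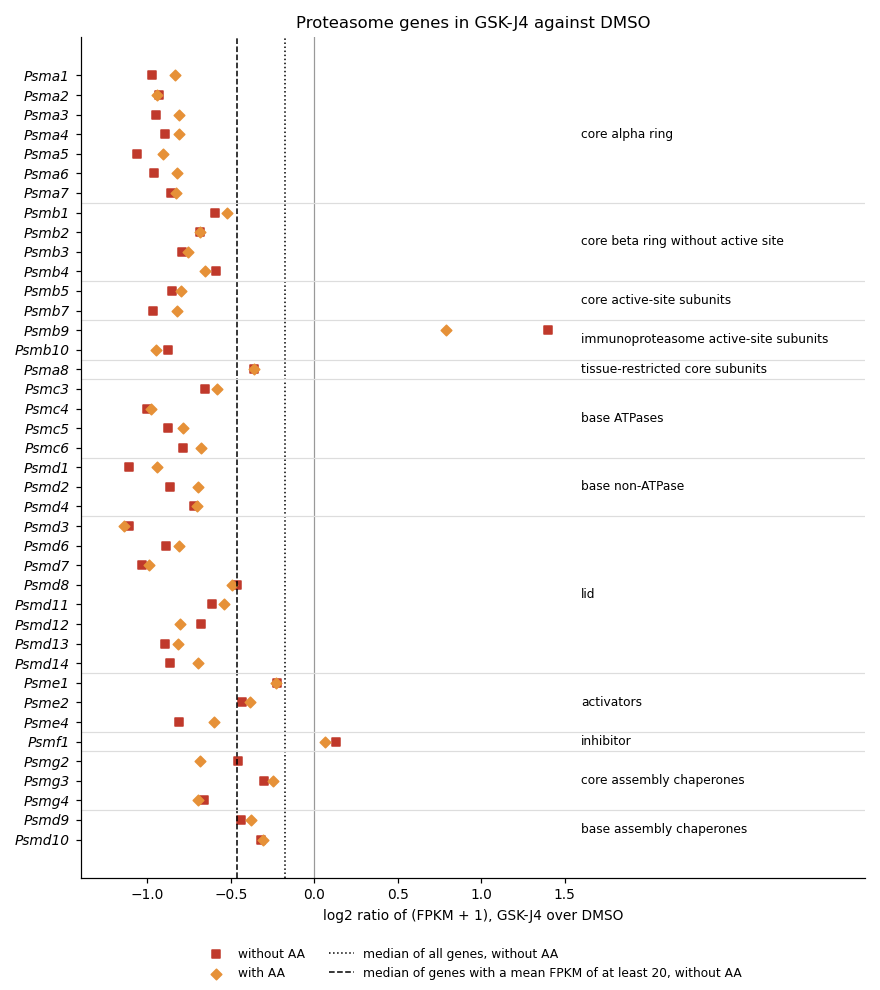
Log2 ratio of FPKM + 1, GSK-J4 over DMSO, for each proteasome gene without AA (squares) and with AA (diamonds), grouped by role. Nearly all points lie left of 0, the alpha ring between -1.06 and -0.81, and *Psmb9* lies far to the right of the others.

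In the alpha ring of the core, all 7 genes were at least 1.5-fold lower in both comparisons. Of genes with a mean of at least 20 FPKM, 37.8% without AA and 32.8% with AA were, and of all genes 19.3% and 17.8%. *Psma5* (chr3:108257064-108279976) was at 260.6 FPKM in PBS+DMSO against 124.5 in PBS+GSK-J4, and with AA at 243.6 against 129.7. GSK-J4 cells thus held 47.8% of the DMSO level without AA and 53.2% with AA, log2 ratios of -1.06 and -0.90. The smallest difference without AA was that of *Psma7*, which was at 275.9, 151.9, 260.8 and 146.2 FPKM in the same order (log2 ratios of -0.86 and -0.83). The 7 genes were also all below the running median, with median offsets of -0.32 and -0.24. The testis subunit *Psma8*, an alternative to *Psma7*, was at 5.50, 4.05, 5.03 and 3.69 FPKM, and its log2 ratio was -0.36 in both comparisons.

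The 4 structural beta subunits were lower by less than the alpha ring, with median log2 ratios of -0.64 and -0.67. *Psmb3* had the largest difference, at 216.7 FPKM with DMSO and 125.0 with GSK-J4 when AA was absent, and at 210.3 and 124.2 when it was present (-0.79 and -0.76). *Psmb4*, at 284.7, 188.8, 289.1 and 183.2 FPKM (-0.59 and -0.66), and *Psmb1*, at 121.8, 80.3, 118.2 and 82.0 FPKM (-0.59 and -0.52), were close to the running median of genes with similar expression, with offsets between -0.08 and 0.02.

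Of the constitutive active-site subunits, *Psmb5*, with the chymotrypsin-like site that proteasome inhibitors target, was at 298.5 and 164.8 FPKM without AA (DMSO, then GSK-J4) and at 295.0 and 169.3 with AA. *Psmb7* (chr2:38588038-38643933) was at 353.9 and 180.7 FPKM without AA and at 327.8 and 184.9 with AA. In each gene both GSK-J4 values were below both DMSO values, as in 50.3% of all genes and 80% of genes with a mean of at least 20 FPKM. The log2 ratios were -0.85 and -0.80 for *Psmb5* and -0.97 and -0.82 for *Psmb7*. Both genes have a named processed copy in the annotation (*Psmb5-ps* and *Psmb7-ps2*), to which some reads may have been assigned.

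The immunoproteasome genes did not move together. *Psmb10*, which takes the place of *Psmb7*, was at 15.8 and 8.13 FPKM without AA (DMSO, then GSK-J4) and at 15.6 and 7.56 with AA. Its log2 ratios of -0.88 and -0.95 were like those of *Psmb7*, and the ratio of *Psmb7* to *Psmb10* FPKM stayed between 21.1 and 24.5 in the 4 libraries. The log2 ratio of *Psmb10* was negative under each of the 4 other scalings too. *Psmb8* was not analysed here.

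*Psmb9*, which takes the place of *Psmb6*, was at 0.671 FPKM in PBS+DMSO against 3.40 in PBS+GSK-J4, and with AA at 0.876 against 2.24. It was higher in both GSK-J4 libraries, with log2 ratios of 1.40 and 0.79, and these were positive under each scaling tried. As the DMSO values are below 1 FPKM, *Psmb9* entered the comparison only through the GSK-J4 side and is left out when 1 FPKM is required in both libraries. Even in PBS+GSK-J4 its level was below that of *Psmb10*.

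*Psmb9* shares its place in the genome with *Tap1*, a subunit of the transporter that carries proteasome-made peptides into the endoplasmic reticulum. The deposited tables give both genes the same locus, chr17:34182086-34197213, the genes lie head to head on opposite strands, and in GENCODE they overlap by 212 bases. *Tap1* was at 1.55 FPKM with DMSO and 16.1 with GSK-J4 when AA was absent, and at 1.66 and 11.6 when it was present (log2 ratios of 2.74 and 2.24). Both genes were thus low in the DMSO libraries, higher with GSK-J4, and lower in AA+GSK-J4 than in PBS+GSK-J4. Without strand information, reads in the overlap cannot be assigned to one of them.

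The sequence between both starts is printed because it separates the RefSeq starts of the pair. The overlap given above is that of the GENCODE genes. In GENCODE *Psmb9* extends to position 34187764, so the printed interval lies inside that gene. The 225 bases between the RefSeq start of *Psmb9* and that of *Tap1* (GRCm38.p6, chr17:34187331-34187555, minus strand, so that *Psmb9* begins right after the last base) read as follows, with capitals marking a TGANNNNGC match and the reverse complement of CCAAT.
*Psmb9* to *Tap1* interval: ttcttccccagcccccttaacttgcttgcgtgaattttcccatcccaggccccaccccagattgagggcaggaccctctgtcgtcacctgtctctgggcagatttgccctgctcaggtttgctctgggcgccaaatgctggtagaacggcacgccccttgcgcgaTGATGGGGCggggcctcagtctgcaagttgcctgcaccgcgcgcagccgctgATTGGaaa
These matches are only a description of the letters in this window.

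Of 8 listed genes of the interferon gamma response and antigen processing, 5 had a value. *Tap1*, *B2m* and *Nlrc5* were at least 1.5-fold higher in both comparisons, *Irf1* was at least 1.5-fold lower in both, and *Erap1* was near 1 FPKM in every library. Over all genes, 11.6% without AA and 10.1% with AA were higher by that margin, and 19.3% and 17.8% were lower. *B2m*, the light chain of MHC class I, was at 16.1 and 33.0 FPKM without AA (DMSO, then GSK-J4) and at 15.3 and 33.6 with AA (log2 ratios of 0.99 and 1.09). *Nlrc5*, the activator of MHC class I genes, was at 0.085, 1.57, 0.095 and 1.0 FPKM (1.25 and 0.87), so it too was below 1 FPKM in both DMSO libraries. In contrast, *Irf1*, an interferon-induced factor known to activate *Psmb9* and *Tap1*, was at 21.8, 12.2, 15.9 and 9.65 FPKM (-0.79 and -0.67). The immune cell markers with a value (*Cd74*, *Cd3e* and *Lyz2*, 3 of 5 listed) summed to 6.70 FPKM with DMSO and 14.1 with GSK-J4 in the absence of AA, and to 6.54 and 10.8 in its presence. Their part in the values of *Psmb9* and *Tap1* was not tested.

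**Figure D4:**
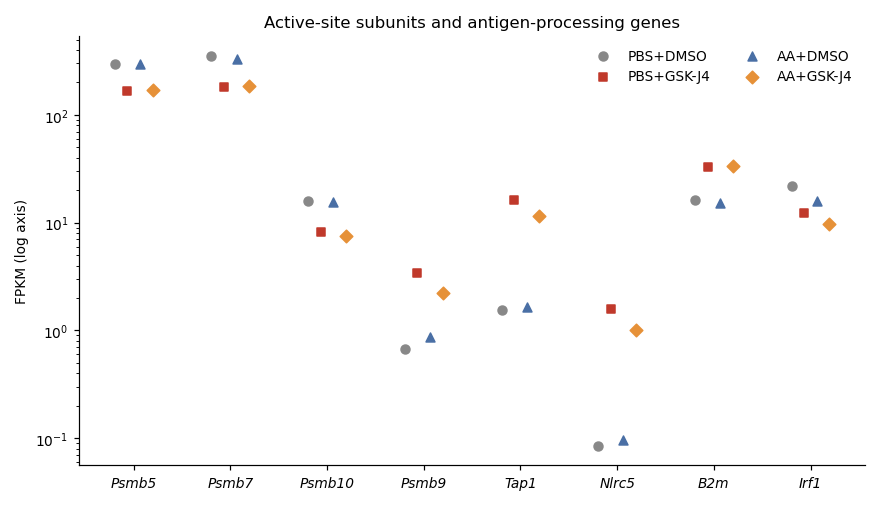
FPKM on a log axis of the measured active-site subunits and of antigen-processing genes, with 1 point per library. *Psmb9*, *Tap1*, *Nlrc5* and *B2m* are higher in both GSK-J4 libraries than in both DMSO libraries, and *Psmb5*, *Psmb7*, *Psmb10* and *Irf1* are lower. Over all genes, 50.3% are lower in both GSK-J4 libraries than in both DMSO libraries. The share that is higher in both was not counted, so how common that order is cannot be read here.

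The 19S particle behaved like the core. Of its 15 measured genes under the symbol rule, 14 without AA and 12 with AA were at least 1.5-fold lower, with medians of -0.86 and -0.79. *Adrm1*, outside the rule, had log2 ratios of -0.74 and -0.81. The shares lower by that margin were 19.3% and 17.8% of all genes, and 37.8% and 32.8% of genes with a mean of at least 20 FPKM. Among the ATPases of the base, which unfold the substrate, *Psmc4* was at 92.2 FPKM in PBS+DMSO against 45.5 in PBS+GSK-J4, and with AA at 89.6 against 45.0 (-1.0 and -0.98). *Psmc3* had the smallest difference of the 4 measured ATPases, at 135.7, 85.8, 131.4 and 87.5 FPKM (-0.66 and -0.58). In the rest of the base, the scaffold subunit *Psmd1* was at 140.6, 64.7, 129.1 and 66.6 FPKM (-1.11 and -0.94), and the ubiquitin receptor *Psmd4* at 128.5, 77.7, 128.5 and 78.5 FPKM (-0.72 and -0.70).

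In the lid, the particle's deubiquitinating part, *Psmd3* (chr11:98682533-98695980) was at 121.9 FPKM with DMSO and 56.1 with GSK-J4 when AA was absent, and at 121.9 and 54.7 when it was present. With log2 ratios of -1.11 and -1.14, it was also the constitutive subunit farthest below the running median, by offsets of -0.52 and -0.62. *Psmd7*, which pairs with the deubiquitinase *Psmd14*, was at 221.8, 108.1, 218.9 and 109.8 FPKM (-1.03 and -0.99), and *Psmd14* itself at 121.6, 66.4, 109.8 and 67.2 FPKM (-0.86 and -0.70). The smallest difference among the lid members was that of *Psmd8*, at 60.4, 43.6, 61.1 and 43.1 FPKM (-0.46 and -0.50). Among the members, *Psmd8* was the only constitutive subunit less than 1.5-fold lower in both comparisons. The lid subunit *Shfm1*, which is outside the symbol rule, was also less than 1.5-fold lower in both (-0.54 and -0.49).

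*Psmd4*, *Psmd10* and *Psmg4* each have 2 coding sequence groups, that is, sets of transcripts with the same coding sequence. In *Psmd4* the smaller group held 42.2% of the gene's FPKM with DMSO and 37.0% with GSK-J4 in the absence of AA, and 40.2% and 33.0% in its presence. Both groups were lower with GSK-J4, by log2 ratios of -0.89 and -0.97 for the smaller and -0.59 and -0.54 for the larger one. The larger group of *Psmd10* held between 81.7% and 90.1%, and that of *Psmg4* between 81.9% and 83.9%.

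Of the activators that replace the 19S particle, only *Psme4* was past the threshold, in both comparisons, and the inhibitor was not. *Psme1* and *Psme2* form the activator induced by interferon gamma and lie beside each other on chromosome 14. *Psme1* was at 51.3 and 43.8 FPKM without AA (DMSO, then GSK-J4) and at 48.5 and 41.3 with AA (-0.22 and -0.23), and *Psme2* at 53.4, 39.2, 47.5 and 36.2 FPKM (-0.43 and -0.38). Neither direction is firm. The log2 ratio of *Psme1* was positive after upper quartile scaling, after scaling to the same total and relative to the running median, and that of *Psme2* was positive relative to the running median.

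*Psme4*, a single-chain nuclear activator, was at 64.0 FPKM in PBS+DMSO against 36.1 in PBS+GSK-J4, and with AA at 60.8 against 39.8 (-0.81 and -0.60). *Psmf1*, which binds the core and inhibits it in vitro, was at 9.0, 9.94, 8.95 and 9.41 FPKM. Its log2 ratios of 0.13 and 0.07 make it, beside *Psmb9*, the only member listed higher with GSK-J4, and they were positive under each scaling tried. *Psme3* was not analysed here.

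Of the 5 measured chaperones that assemble the particle, 1 without AA and 2 with AA were at least 1.5-fold lower, against 19.3% and 17.8% of all genes. Of the core chaperones, *Psmg4* was at 37.4 FPKM with DMSO and 23.4 with GSK-J4 when AA was absent, and at 45.0 and 27.4 when it was present (-0.66 and -0.70), and *Psmg3* at 16.4, 13.1, 16.6 and 13.8 FPKM (-0.30 and -0.25). *Psmg2* had log2 ratios of -0.46 and -0.68. The base chaperones *Psmd9* (-0.44 and -0.38) and *Psmd10* (-0.32 and -0.31) were both less than 1.5-fold lower.

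The second question is whether AA altered the response. The log2 ratios of all 40 members had the same sign without and with AA, and their Spearman correlation was 0.941 over the 40 genes, compared with 0.940 over the 2673 genes with a mean of at least 20 FPKM. These points share the cell line and the processing. In 28 of 40 members the log2 ratio with AA was above that without, by a median of 0.05 over the members. The same was seen in 1739 of the 2673 more strongly expressed genes, with a median difference of 0.05 as well. The member whose log2 ratios were farthest apart was *Psmb9*, at 1.40 without and 0.79 with AA, at levels where both DMSO values are below 1 FPKM.

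AA alone was compared across the 2 deposited tables, which may have been scaled separately. With DMSO, none of the 39 members past the filter was at least 1.5-fold lower or higher in AA than in PBS, where 2.22% of all genes were lower and 2.09% higher. With GSK-J4, none of the 40 members was past 1.5-fold, where 2.54% of all genes were lower and 1.71% higher. Few genes with a mean of at least 20 FPKM were past it either. With DMSO, 0.412% of them were lower and 0.15% higher, and with GSK-J4 0.561% and 0.112%. These counts come from single libraries and no test was run. The median log2 ratio of the members was -0.07 with DMSO and -0.01 with GSK-J4, and over all genes it was -0.05 and -0.02. The member highest in AA was *Psmg4*, with log2 ratios of 0.26 and 0.22, and *Psmd12* was lower in AA in both (-0.20 and -0.33). *Psmb9* was at 3.40 FPKM in PBS+GSK-J4 and 2.24 in AA+GSK-J4 (-0.44).

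The pathway around the proteasome was examined with a list of 50 symbols, some of them older names of a listed gene, of which 37 had a value. Of the 36 past the filter without AA, 12 were at least 1.5-fold lower and 4 higher with GSK-J4, with a median of -0.45. With AA it was 10 lower and 4 higher of 35, with a median of -0.39. Leaving out the antigen-processing genes, 11 were lower and 1 higher of 31 without AA, and 9 lower and 1 higher with AA. All 4 shares lower lie between those of all genes (19.3% and 17.8%) and those of genes with a mean of at least 20 FPKM (37.8% and 32.8%), and the 4 higher are near the share of all genes (11.6% and 10.1%). The 1 higher gene is *Maff*, at 0.483, 1.31, 0.803 and 1.74 FPKM, which like *Nlrc5* passed the filter only through its GSK-J4 values.

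*Pomp*, the maturation factor of the core, was at 102.8 and 57.0 FPKM without AA (DMSO, then GSK-J4) and at 99.2 and 56.7 with AA (-0.84 and -0.80). *Vcp*, the segregase that extracts ubiquitinated proteins, was at 275.5, 143.6, 256.3 and 148.3 FPKM (-0.94 and -0.79). Both values were close to the medians of the constitutive subunits. *Nsfl1c*, a cofactor of *Vcp*, had the lowest mean ratio of the list, but its levels of 101.0, 26.4, 64.1 and 37.7 FPKM gave unequal log2 ratios of -1.90 and -0.75.

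Of the 6 measured shuttle factors, which carry ubiquitinated proteins to the proteasome, 4 without AA and 3 with AA were at least 1.5-fold lower, against 37.8% and 32.8% of genes with a mean of at least 20 FPKM. *Rps27a*, which encodes ubiquitin fused to a ribosomal protein, was at 1545, 1250, 1410 and 1258 FPKM (-0.31 and -0.16).

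Of the factors that transcribe proteasome genes, *Nfe2l1* was at 34.2 FPKM in PBS+DMSO against 38.4 in PBS+GSK-J4, and with AA at 31.8 against 41.6. Its log2 ratios were 0.16 and 0.38, positive under each scaling tried, and 0.61 and 0.79 above the running median. *Nfe2l2*, which responds to oxidative stress, was at 23.2, 16.8, 19.4 and 15.6 FPKM (-0.45 and -0.29).

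Motifs were counted in RefSeq promoters (GRCm38.p6), from 250 bases before to 50 after the start, which were given for 32 of the 40 members. The core of the antioxidant response element, TGANNNNGC on either strand, was in 17 of 32 members (53.1%) and in 41.3% of all 32851 promoters. Its stricter form TGACNNNGC, every match of which is also a match of the first, was in 5 of 32 (15.6%) and in 12.4% of all. CCAAT was in 10 of 32 (31.2%) and in 37.4%. A member counted if any of its promoters had a match, over 34 promoters of the 32 members, whereas all promoters were counted singly. The shares are thus unlike measures, and this way of counting can raise that of the members. These shares were not tested and are a description of the letters in this window.

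The stricter matches nearest to the start are shown, since this is the element named above for *Nfe2l1*, with the motif or its reverse complement in capitals and each window read along the strand of its gene. They begin 47 bases before the RefSeq start in *Psmb5* (chr14:54618014-54618062, minus strand) and 31 before it in *Psmd9* (chr5:123228139-123228187, plus strand). In *Psme4* (chr11:30771748-30771796, plus strand) the match begins 7 bases before the start and runs across it. In GENCODE, *Psmd9* and *Psme4* start earlier, so their matches lie inside these genes.
*Psmb5*: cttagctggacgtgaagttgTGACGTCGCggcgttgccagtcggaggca
*Psmd9*: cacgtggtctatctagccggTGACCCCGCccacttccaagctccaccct
*Psme4*: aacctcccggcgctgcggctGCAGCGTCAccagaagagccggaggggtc
In the same order these genes had log2 ratios of -0.85, -0.44 and -0.81 without AA.

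Other large assemblies were listed for comparison. The COP9 signalosome, a relative of the 19S lid, had 6 measured genes, all lower with GSK-J4, with medians of -0.78 without AA and -0.66 with AA, and all 6 were below the running median in both. The CCT chaperonin, which folds actin and tubulin, had medians of -0.92 and -0.76 over 6 genes, and the translation factor eIF3 -0.66 and -0.58 over 11. The 67 cytosolic ribosomal protein genes differed from these, with medians of -0.24 and -0.18 and only 1 gene at least 1.5-fold lower in each comparison, and 65 of the 67 were above the running median in both. Relative to the running median, the median offsets were -0.38 and -0.29 for CCT, with 5 of 6 genes below it in both comparisons, and -0.05 and -0.0005 for eIF3, with 8 and 6 of 11 below it. For the constitutive proteasome subunits they were -0.26 and -0.23. Without AA the median log2 ratio of CCT (-0.92) was below those of the core (-0.89) and the 19S particle (-0.86). With AA the core (-0.81) and the 19S particle (-0.79) were slightly below CCT (-0.76) and below the other assemblies. The order of CCT and the proteasome thus differed between the comparisons. No test of these differences was made.

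**Figure D5:**
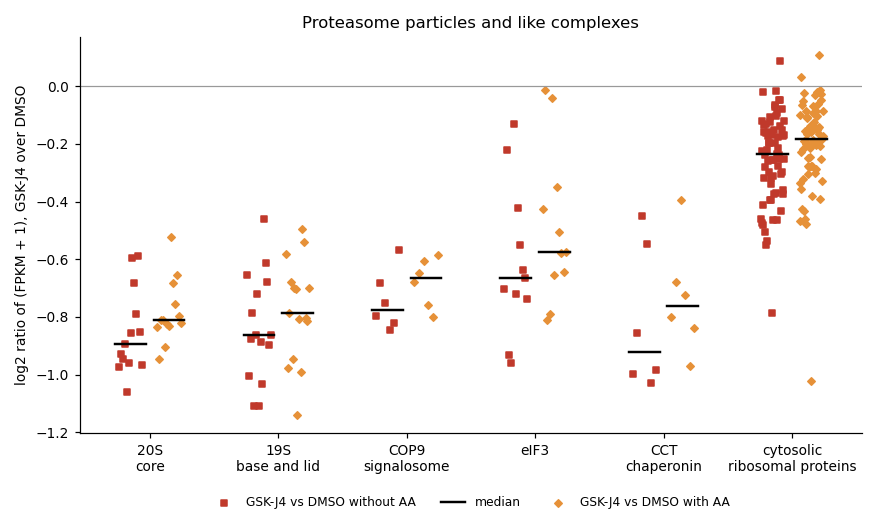
Log2 ratio of FPKM + 1, GSK-J4 over DMSO, for each gene of the 20S core, the 19S particle and 4 other assemblies, without AA (squares) and with AA (diamonds), with black bars for the medians. The cytosolic ribosomal proteins cluster near medians of -0.24 and -0.18, above the medians of all the other assemblies.

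As for the cells, all 8 listed ESC markers had values, and they summed to 2327 FPKM with DMSO and 1353 with GSK-J4 in the absence of AA, and to 2092 and 1209 in its presence. They were thus lower with GSK-J4 as the proteasome genes were. Of 10 feeder fibroblast markers 5 had values, which summed to 49.3, 37.5, 41.2 and 35.3 FPKM. Most of this is *Vim*, at 34.5, 20.1, 28.5 and 17.8 FPKM, and without it the other 4 summed to 14.8, 17.4, 12.7 and 17.5 FPKM, higher in both GSK-J4 libraries. Of the trophoblast markers, 3 of 6 had values, which summed to 16.4, 18.6, 24.2 and 22.5 FPKM. None of the 6 primitive endoderm markers was analysed here. The part of the cell composition in the proteasome values was not tested.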

How the data were processed

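RNA-Seq of 4 libraries, 1 per condition, was analysed. The authors removed duplicates from single-end reads and used TopHat2, Cufflinks2 and CummeRbund, and the submitters' processing notes name the build mm10. They deposited linear FPKM per coding sequence group in 2 tables, without and with AA, under columns headed as log10. The scaling between libraries and between tables is not given in the sources used here. The authors' fold change, p-value and q-value columns were not used. Duplicate removal may reduce the FPKM of strongly expressed genes, which most subunit genes are.

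FPKM was summed per gene, and 157 genes with a failed estimate were left out. Log2 ratios used a pseudocount of 1 and genes with at least 1 FPKM in either library. The threshold was 1.5-fold. Running medians covered 300 genes. Steps of low FPKM values gave no relative depth that stood out, so depth is unknown. Loci were checked against GENCODE M21 (GRCm38), and 40 of 40 overlapped the gene of that name. Scripts were tested on simulated data. Members and lists were chosen with earlier results of these data known. Named in full were the active-site subunits, activators, inhibitor, the 3 highest and 3 lowest members per GSK-J4 comparison, the extremes of each role, and the 3 highest and 3 lowest pathway genes. Other genes were named after their values were seen. Alternatives were other pseudocounts, filters, scalings, thresholds and member sets. Scripts ran in Python 3.11.15 with pandas 2.3.3 and numpy 2.4.6, and figures were drawn with matplotlib 3.10.9. The result of 1 listed gene is not reported here.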

Additional observations from a re-analysis of the deposited data

How the results depend on the processing

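Of 164 values under 14 alternatives for 12 results, 136 stayed within the tolerance and 28 moved. A count was allowed to differ by up to 1.5 times. The tolerance for a median was 0.0718, the median absolute difference between the members' log2 ratios without and with AA. The cause of these moves was not tested beyond what each setting does by construction. The median of the members without AA was -0.63 after centring on the median of all genes, -0.52 after upper quartile scaling, -0.42 after scaling to the same total and -0.24 after centring on the running median, and with AA it was -0.54, -0.45, -0.37 and -0.21, and -0.81 for the constitutive subunits alone. The number of members at least 1.5-fold lower without AA was 15 after upper quartile scaling, 6 after scaling to the same total and 1 relative to the running median, where 7.42%, 4.68% and 7.88% of all genes were lower, and with AA it was 7, 6 and 2, where 7.31%, 5.51% and 8.81% were. Within the tolerance, it was 22 and 19 after centring on the median of all genes, where 10.4% and 10.2% of all genes were lower, and 25 and 27 with a pseudocount of 5. At 2-fold, 5 of the 40 members were lower without AA and 1 with AA. Over all genes, 322 of 9196 without AA and 309 of 9139 with AA were lower by that margin. Of the 2673 genes with a mean of at least 20 FPKM, 168 and 122 were. No member was 2-fold higher with AA (0), where 377 of 9139 genes were. The number higher, which is *Psmb9* alone, was 0 in both comparisons with a pseudocount of 5, with at least 5 FPKM in either library, with at least 1 FPKM in both libraries and for the constitutive subunits alone. The median of AA against PBS with DMSO was 0.0025 after scaling to the same total and 0.0044 relative to the running median. No paired analysis was possible because the groups compared share fewer than 2 replicate numbers. The GSK-J4 and DMSO libraries at both AA levels were set side by side and not fitted as pairs, and with 1 library per condition no replicate was left out. *Psmc3ip*, which the rule would take but which is no proteasome subunit, was not among the genes analysed here. Depth is unknown, and the values of *Psmb9* near 1 FPKM are those it limits most.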

Other observations

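Among the members outside the constitutive particle, the assembly chaperone *Psmg2* was at 50.3 FPKM in PBS+DMSO against 36.4 in PBS+GSK-J4, and with AA at 53.2 against 32.8. Its log2 ratio was thus -0.46 without and -0.68 with AA, a lower value with AA where most members had a higher one. *Psmg4* was the member with the highest AA to PBS ratio in both the DMSO and the GSK-J4 libraries, at 37.4 FPKM in PBS+DMSO and 45.0 in AA+DMSO.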
